A study of Homo sapiens with 4 samples.

Results

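The aryl hydrocarbon receptor gene set described here holds 8 genes: the receptor gene AHR, the partner gene ARNT2, the repressor gene AHRR, and the target genes TIPARP, CYP1A1, CYP1B1, CYP1A2 and ALDH3A1. They are taken by symbol from a list drawn up with earlier results of these data known, and all 8 were found among the 20263 genes of the deposited table. The libraries came from HCT116, an established human colon cancer line, kept for 24 h either with DMSO, the solvent (2 libraries), or with the compound N_12 (2 libraries), in medium with 10% serum. The series title presents N_12 as a derivative of the kinase inhibitor nilotinib, and the treatment tag of the N_12 samples reads HJJ_3_5. No dose is stated, and nothing in the labels says whether the replicates were separate cultures, so p-values measure only the spread between these libraries.

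AHR is a ligand-activated transcription factor that waits in the cytosol in a complex with HSP90 and co-chaperones. Once a flat aromatic ligand binds, it enters the nucleus, pairs with ARNT or its relative ARNT2, and binds xenobiotic response elements with the core GCGTG. Its classical targets are cytochrome P450 enzymes of the CYP1 family, and 2 of its other targets, AHRR and TIPARP, feed back on the receptor: AHRR competes for its partner and its binding sites, and TIPARP marks it with ADP-ribose for turnover. In the gut the receptor is known as a sensor of dietary and microbial indoles.

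In N_12, AHRR was 2.04-fold higher than in DMSO and was the 1 gene of the set that passed the test. The receptor itself, its partner ARNT2 and the most used readout of receptor activity, CYP1A1, did not pass, and CYP1A2 had no counts in any library. CYP1B1 and TIPARP had higher means in N_12 without passing. The set therefore held 1 gene called higher and 0 called lower among the 7 that could be tested (edgeR's quasi-likelihood test, Benjamini-Hochberg adjusted p under 0.05 over 14105 genes). Over all tested genes 0.822% were called higher, 1.43% lower and 2.25% in all. The median log2 fold change of the 7 genes was 0.25, against 0.01 over all tested genes.

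The sequences around the receptor's binding core are shown because AHRR, the gene that rose, and the other members can be compared at the sites the receptor could read. RefSeq promoter windows of 300 bases, 250 before and 50 after a start site, in build GRCh38.p14, were at hand for AHR, AHRR, CYP1A1, CYP1A2 and TIPARP; ARNT2, CYP1B1 and ALDH3A1 had none in that table. Each line gives a match to GCGTG, searched on both strands and turned so that the core reads 5′ to 3′, with up to 10 bases on either side. Capitals mark the core, or the longer form TNGCGTG where its letters are there; every match to the longer form is also a match to the core. Distances run from the start site to the base of the core farthest upstream.
AHRR, 30 bases before the first start site, chr5:321674-321698, plus strand: cgggcggcTCGCGTGccggggtggg
AHRR, 247 bases before the second start site, chr5:322360-322377, plus strand: ggcGCGTGacaggcaggg
AHRR, 42 bases before the second start site, chr5:322558-322582, plus strand: agaagggtggGCGTGtgcgcgcgtt
CYP1A1, 57 bases before its start site, chr15:74725571-74725595, minus strand: agggaaggagGCGTGgccacacgta
TIPARP, 208 bases before the first of 3 start sites, chr3:156674372-156674396, minus strand: ccgcgaggggGCGTGtcctttctcg
TIPARP, 142 bases before that start site, chr3:156674438-156674462, minus strand: ccctgcgcgcGCGTGcgcgttcgtt
AHR, at base 38 after its start site, chr7:17298679-17298701, plus strand: tgttccgagaGCGTGccccggac
The CYP1A2 window and those of the other TIPARP start sites held no match. Of all 35116 windows that RefSeq gave, 36.5% held the core and 5.51% held TNGCGTG, which among the members occurred once, at the first AHRR start site. The 250 bases before that start site, chr5:321464-321713 on the plus strand, with TNGCGTG in capitals, read as follows.
AHRR: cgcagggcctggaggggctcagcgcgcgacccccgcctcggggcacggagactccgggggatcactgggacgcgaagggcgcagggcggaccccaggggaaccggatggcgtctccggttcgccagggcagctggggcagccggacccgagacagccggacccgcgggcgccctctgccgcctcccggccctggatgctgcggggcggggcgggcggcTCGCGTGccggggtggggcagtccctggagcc
These are matches of letters only. Binding of the receptor was not measured, and the CYP1A1 window does not reach the enhancer known further upstream.

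Depth ranged from 29769568 counts in DMSO replicate 2 to 41717938 in N_12 replicate 1, and the 10 most abundant genes took 9.65% to 11.1% of the counts. CPM below are counts scaled to library totals corrected by TMM, a method that evens out composition between libraries. Of 8 markers of colon epithelium, EPCAM, CDH1, KRT8, KRT18, KRT19 and CDX2 were counted well above the floor, whereas VIL1 and LGALS4, genes of differentiated colonocytes, stayed at or below 0.182 CPM on average in both groups. The summed level of the 8 markers was 4075 to 4608 CPM in DMSO and 3351 to 3694 CPM in N_12, most of it keratins. The markers did not move one way. EPCAM, CDH1, KRT8 and KRT19 had log2 fold changes of -0.42, -0.52, -0.36 and -0.32, and KRT18 had 0.01. CDX2, at 13.6 and 14.3 CPM in DMSO and 22.1 and 20.7 CPM in N_12, had 0.62. Of the 8 markers 6 were tested, and none was called by edgeR. An unadjusted p under 0.05 was found for 4 of the 6, against 21.8% of all tested genes. The part of the markers in the values below was not tested. Hepatocyte markers, relevant since CYP1A2 is a liver gene, had TTR and APOH at 0 in every library and ALB at means of 0.101 (DMSO) and 0.119 CPM (N_12); their summed level, almost all of it SERPINA1, was 21.9 and 23.8 CPM in DMSO and 19.3 and 13.5 CPM in N_12. In bulk RNA, fewer cells expressing a gene and less RNA per cell cannot be told apart.

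**Figure D1:**
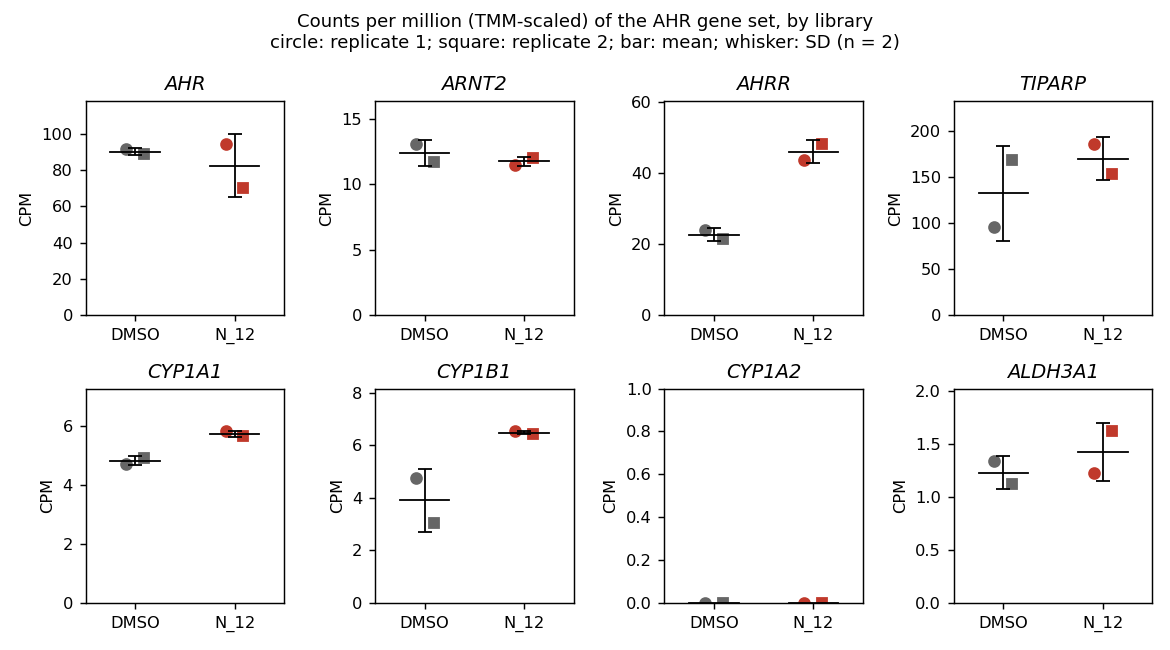
Level of each gene of the set in each library, in CPM on a linear axis from 0, with DMSO in grey and N_12 in red; bars are means and whiskers SDs of 2 libraries. AHRR has its groups far apart (21.3 and 23.9 against 43.8 and 48.3 CPM), TIPARP has DMSO replicate 1 far below the other 3 libraries, and CYP1A2 is at 0 throughout.

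AHR, the receptor gene (ENSG00000106546, on chromosome 7 from 16916359 to 17346152 in GRCh38 by GENCODE 29), stood at 91.4 and 88.8 CPM in DMSO and at 94.5 and 70.0 CPM in N_12. The N_12 libraries lay on either side of the DMSO libraries, so the groups overlapped. The log2 fold change was -0.13 (95% interval -0.53 to 0.26, adjusted p = 0.696). Without N_12 replicate 2 it was 0.07. GENCODE 29 places 29.4% of the exon bases of AHR also in AC019117.2, a gene model on the same strand with no row of its own in the table. How such reads were assigned is not given in the sources used here.

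ARNT2, a basic helix-loop-helix PAS protein that can take the place of ARNT beside the receptor (ENSG00000172379), was low and even. It had 398 and 345 counts in DMSO against 485 and 488 in the deeper N_12 libraries, or 13.1 and 11.7 CPM against a mean of 11.7 ± 0.324 CPM (SD, n = 2), overlapping ranges with a log2 fold change of -0.08 (-0.49 to 0.33, adjusted p = 0.835). The usual partner ARNT was more abundant per exon length, at 11.3 and 10.5 CPM per kilobase in the DMSO libraries against 1.69 and 1.52 for ARNT2. ARNT had a log2 fold change of -0.05 (-0.40 to 0.30, adjusted p = 0.878). Neither partner differed between the groups by more than the spread within them.

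AHRR, the feedback repressor that resembles the receptor in its DNA-binding part but does not activate transcription (ENSG00000063438, chromosome 5 from 304176 to 438291 in GRCh38), had 728 and 627 counts in DMSO and 1847 and 1969 in N_12. These are 23.9 and 21.3 CPM against 43.8 and 48.3 CPM, or 22.6 ± 1.80 and 46.1 ± 3.15 CPM (mean ± SD, n = 2 per group). Both N_12 libraries were above both DMSO libraries, as they were for CYP1A1 and CYP1B1, so for 3 of the 7 tested members; this was the case for 27.9% of all tested genes. The log2 fold change was 1.03 (SE 0.16, 95% interval 0.66 to 1.40, edgeR adjusted p = 0.0240), rank 130 by p among 14105 genes. The estimate lay between 0.95 and 1.11 under 13 other settings, and limma-voom (adjusted p = 0.0486) and DESeq2 (adjusted p = 2.35e-06) also called it, as the 1 member each called. These tools called 0.929% and 9.83% of all genes, and 0.333% and 4.42% as higher. The call ended without DMSO replicate 2 (adjusted p = 0.0630), without N_12 replicate 1 (0.131) and without N_12 replicate 2 (0.148), with log2 fold changes of 0.95, 1.08 and 0.95; edgeR called 0 genes of the whole table without either N_12 library, although 2855 and 2763 had an unadjusted p under 0.05. Of the exon bases of AHRR 3.18% are shared with PDCD6 on the same strand. PDCD6 itself had 1487 and 1412 counts in DMSO and 1690 and 1814 in N_12, a smaller rise in raw counts than the rise in library totals.

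TIPARP, the mono-ADP-ribosyltransferase PARP7 that shuts the receptor down (ENSG00000163659), was the most abundant gene of the set per exon length. It had 96.1 and 168.8 CPM in DMSO and 186.7 and 153.7 CPM in N_12. The low library was DMSO replicate 1; DMSO replicate 2 lay between the N_12 libraries. The 2 DMSO libraries differed 1.76-fold from each other, more than the 1.29-fold between the groups (log2 fold change 0.36, -0.38 to 1.11, adjusted p = 0.525). Without DMSO replicate 1 the log2 fold change was 0.01, and without DMSO replicate 2 it was 0.82 (adjusted p = 0.0642).

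The CYP1 enzymes oxidise polycyclic aromatic compounds, and CYP1A1 is the gene most often measured to follow the receptor. CYP1A1 (ENSG00000140465, chromosome 15 from 74719542 to 74725610) had 144 and 145 counts in DMSO and 245 and 231 in N_12, which is 4.72 and 4.93 CPM against 5.82 and 5.67 CPM. The N_12 libraries were higher by a small margin. The log2 fold change was 0.25 (-0.21 to 0.71, adjusted p = 0.497), so the interval ended at 1.63-fold. Across 13 other settings the estimate stayed between 0.21 and 0.30 and was never called.

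CYP1B1, the member of the family best known outside the liver and in tumours (ENSG00000138061), stood at 4.76 and 3.06 CPM in DMSO and 6.53 and 6.45 CPM in N_12. Both N_12 libraries were higher, and DMSO replicate 2 was the low library. The log2 fold change was 0.73 (SE 0.25, 0.14 to 1.32, unadjusted p = 0.0208, edgeR adjusted p = 0.157), 1.66-fold, and did not pass; 21.8% of all tested genes had an unadjusted p under 0.05. It ranged from 0.45 without DMSO replicate 2 to 1.08 without DMSO replicate 1. On the opposite strand, 12.9% of its exon bases overlap other genes, among them RMDN2 with 70 to 110 counts per library, and the strand setting of the counting is not given in the sources used here.

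CYP1A2, the neighbour of CYP1A1 on chromosome 15 and a gene of the liver (ENSG00000140505), had 0 counts in all 4 libraries. Taking 3 counts as the floor, this allows up to 0.0984 and 0.102 CPM in DMSO and up to 0.0712 and 0.0736 CPM in N_12, for counting error only. No change could be looked for at this depth.

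ALDH3A1, an aldehyde dehydrogenase of the classical receptor battery (ENSG00000108602), was near the lower end of what could be tested, with 41 and 33 counts in DMSO and 52 and 66 in N_12. In CPM this was 1.34 and 1.12 against 1.23 and 1.62, overlapping groups with a log2 fold change of 0.21 (-0.56 to 0.98, adjusted p = 0.758). The interval runs to 1.97-fold, so a change of the size seen for CYP1B1 lies within it. Without N_12 replicate 2 the estimate was -0.0025.

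**Figure D2:**
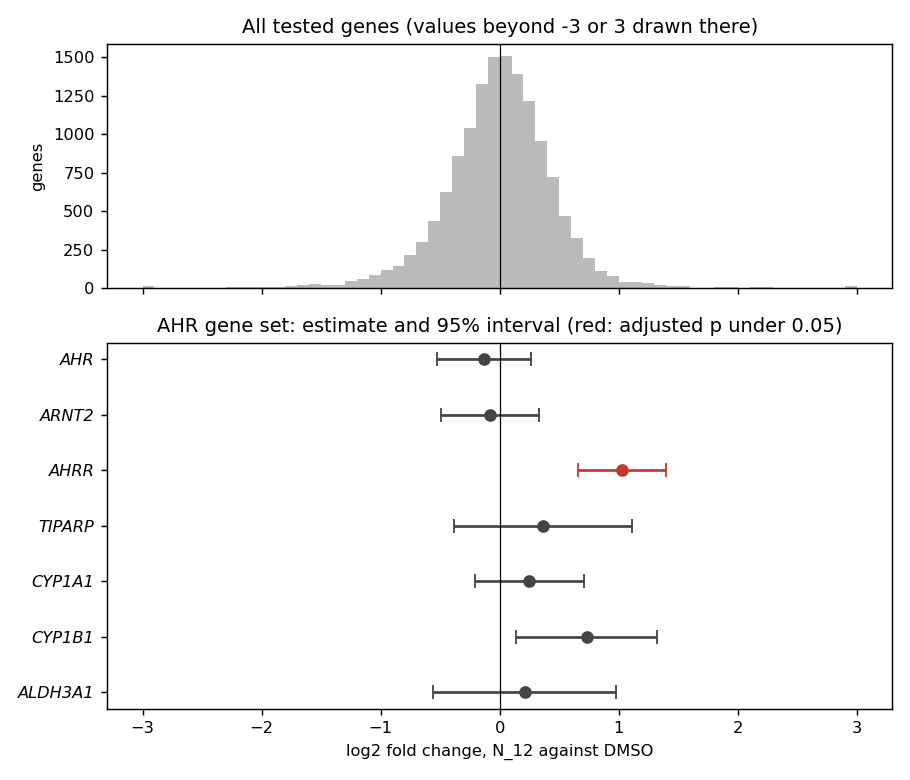
Top, log2 fold changes of all 14105 tested genes as a histogram; bottom, the estimate and 95% interval of the 7 tested members on the same axis. Only the interval of AHRR (red, called) and that of CYP1B1 (not called) lie wholly above 0.

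Levels per kilobase of exon put the members in one order in DMSO: TIPARP (26.2 ± 10.2 CPM per kilobase, mean ± SD, n = 2), AHR (11.2 ± 0.221), AHRR (2.94 ± 0.235), ARNT2 (1.69 and 1.52 in its libraries), CYP1A1 (1.41 ± 0.0431), CYP1B1 (0.650 ± 0.199) and ALDH3A1 (0.315 ± 0.0401). No neighbours in this order had overlapping libraries. In N_12 the order was the same but for CYP1A1 (1.65 and 1.69 CPM per kilobase) above ARNT2 (1.49 and 1.55). The repressor gene AHRR had 3.11 and 2.78 CPM per kilobase beside 11.3 and 11.0 for the receptor in DMSO, and 5.71 and 6.29 beside 11.7 and 8.66 in N_12. These levels use all exons of a gene in GENCODE 29 and shift with the transcripts that HCT116 uses.

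Because AHRR passed and the enzymes did not, its counts were set against those of each other counted member within a library, a ratio that no scaling can move. This comparison was chosen after the values were seen. AHRR over CYP1A1 was 5.06 and 4.32 in DMSO and 7.54 and 8.52 in N_12, a mean ratio 1.71 times as high, with no overlap. AHRR over AHR was 0.261 and 0.240 in DMSO and 0.464 and 0.690 in N_12, and AHRR over ARNT2 and over ALDH3A1 also separated the groups. Against CYP1B1 (5.02 and 6.97 in DMSO, 6.72 and 7.49 in N_12) and TIPARP (0.248 and 0.126, then 0.235 and 0.314) the groups overlapped. Of the 6 ratios 4 separated the groups, each with an exact two-sided permutation p = 0.333, the smallest that 2 against 2 libraries can give. AHRR was picked as the numerator because it was called, so separation from members with small estimates repeats that call and adds no support. With 2 libraries a group no such ratio could pass the threshold, so these are values only, and a larger change of AHRR than of any other member was not shown.

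**Figure D3:**
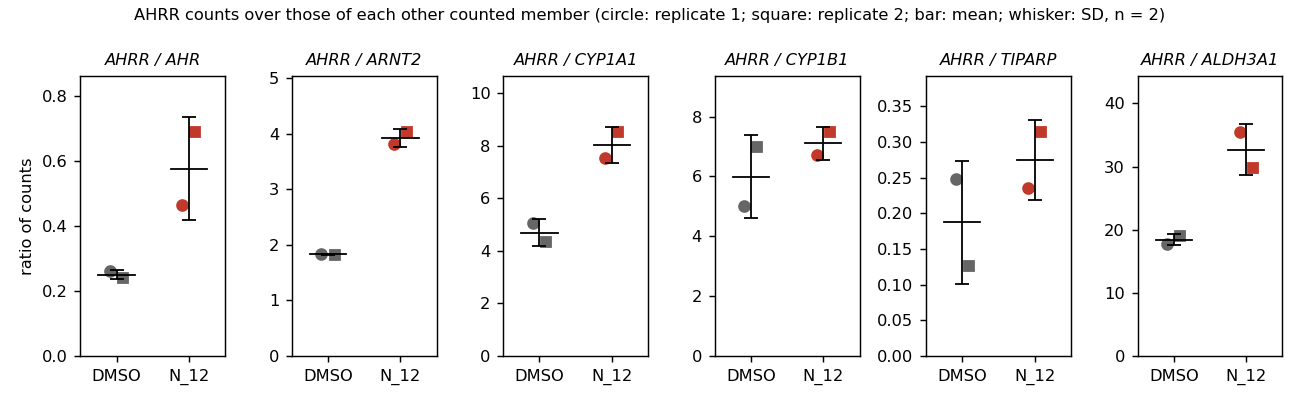
Ratio of AHRR counts to the counts of AHR, ARNT2, CYP1A1, CYP1B1, TIPARP and ALDH3A1 in each library, linear axes from 0, bars for means and whiskers for SDs of 2 libraries. The 2 groups overlap for CYP1B1 and TIPARP and are apart for the other 4.

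Genes with the most similar course over the 4 libraries were found by the Euclidean distance between log2 levels centred on each gene's mean, among genes of at least 5 CPM on average. Nearest to AHRR were NHSL1 (distance 0.099, log2 fold change 0.99), CYB5RL (0.112, 1.14) and PHLDA2 (0.112, 0.99), and 26 of 11234 genes lay within 0.2. For CYP1B1 these were PRR7 (0.063), NUP62 (0.078) and FOSL1 (0.101), with 12 genes within 0.2. For CYP1A1, by contrast, 1513 genes lay as near, led by YWHAH (0.005), TMEM237 (0.021) and SRRD (0.021). TIPARP had 74, led by ATAD2 (0.045), MMAA (0.057) and GDI2 (0.066). The 3 nearest to AHR were SGCB, SPECC1 and SPRED1, at distances of 0.016 to 0.027. ARNT2 lay nearest to MAML1 (0.009), PIP5KL1 (0.015) and ARF5 (0.015), and ALDH3A1 to COL18A1 (0.019), PLXNA1 (0.020) and TYRO3 (0.024). A pseudocount of 0.5 CPM was added to the levels first. It flattens the courses of low genes, most of all ALDH3A1 at 1.12 to 1.62 CPM. With 4 libraries such likeness is a description.

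The rest of the pathway was read from 8 further lists, of which ARNT, NFE2L2, IDO1 and CYP2S1 each belong to 2. Among 22 other reported targets of the receptor 16 could be tested. By edgeR 1 was called higher and 1 lower, where 0.822% of all tested genes were called higher and 1.43% lower. The list had a median log2 fold change of 0.25 against 0.01 over all genes. NQO1, a quinone reductase that is also a target of the oxidant sensor NRF2, rose from 399.1 and 368.0 CPM in DMSO to 603.6 and 621.0 CPM in N_12 (log2 fold change 0.67, SE 0.12, edgeR adjusted p = 0.0394). It lost its call when any 1 library was left out (adjusted p from 0.0876 to 0.159) and with limma-voom (0.0644). HES1, a repressor better known as a Notch target, fell from 61.8 and 55.3 to 29.7 and 22.6 CPM (log2 fold change -1.16, SE 0.18, edgeR adjusted p = 0.0248). HES1 was not called by limma-voom (0.0510) or without either N_12 library (0.116 and 0.148). NFE2L2, which encodes NRF2, had 28.4 and 38.2 CPM in DMSO and 67.8 and 45.4 CPM in N_12 (0.77, edgeR adjusted p = 0.138). DESeq2, which called 4.42% of all genes higher, called NFE2L2 (adjusted p = 0.0438). So did edgeR with a replicate block (adjusted p = 0.0276), a fit that called 963 genes in all. ABCG2, a drug efflux pump, had a log2 fold change of 0.61 (edgeR adjusted p = 0.206). Conjugating enzymes of the battery were hardly counted, and UGT1A1 had 0 counts in every library. UGT1A6 and GSTA1 had 0 counts in both DMSO libraries and 2 to 4 in the N_12 libraries. GSTA2 had 3 and 4 counts in DMSO and 6 and 0 in N_12. The UGT1A genes share exons, which makes their assignment uncertain.

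Of 15 genes of the cytosolic receptor complex, its coactivators and its regulators, none was called by edgeR, 9 had an unadjusted p under 0.05 (21.8% of all tested genes did), and the median was 0.33. Estimates were above 0 for 10 of the 15 and below 0 for 5. CUL4B (-0.54) and KLF6 (-0.37) were lower with an unadjusted edgeR p under 0.05. DESeq2 called 4 of the 15 higher, HSP90AA1, SRC, NCOA2 and CREBBP, where it called 4.42% of all genes higher. A fit corrected for GC content and length called SRC higher and CUL4B lower, among 936 genes called in all. By edgeR the kinase gene SRC and the coactivator genes NCOA2 and CREBBP had log2 fold changes of 0.49, 0.61 and 0.61 (adjusted p from 0.112 to 0.121). HSP90AA1, the inducible HSP90 that holds the receptor ready, had 1064 and 1713 CPM in DMSO and 2550 and 2301 CPM in N_12 (0.80, edgeR adjusted p = 0.128); it was called without DMSO replicate 2, a fit that called 1.56% of all genes higher. As for TIPARP, DMSO replicate 1 was its lowest library.

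Among 13 relatives with the same helix-loop-helix and PAS parts, 9 were tested and NPAS2 alone was called, as higher. Over all tested genes edgeR called 0.822% higher. The list median was 0.32. NPAS2, a partner of the clock protein BMAL1, went from 69.0 and 64.4 CPM to 135.0 and 130.6 CPM (log2 fold change 0.99, SE 0.13, edgeR adjusted p = 0.0162), close in size to AHRR. It was not called without N_12 replicate 1 or 2 (0.126 and 0.128). HIF1A, which competes with AHR for ARNT, had 116.3 and 180.1 CPM in DMSO and 284.3 and 234.5 CPM in N_12 (0.81, edgeR adjusted p = 0.121). DESeq2 called HIF1A (adjusted p = 0.0180), where it called 4.42% of all genes higher. It was also called by edgeR with a replicate block (adjusted p = 0.00131), a fit that called 963 genes in all. The log2 fold change was 0.53 without DMSO replicate 1 and 1.16 without DMSO replicate 2. EPAS1, which encodes HIF-2 alpha, had a log2 fold change of -0.28 (adjusted p = 0.246) and SIM2 one of 0.32 (adjusted p = 0.274).

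Enzymes that make or remove tryptophan-derived ligands were few: of 13 genes 7 could be tested, and none was called. By edgeR 2 had an unadjusted p under 0.05, where 21.8% of all tested genes did, and the median was -0.33. IDO1 had 0 counts in every library. Of the 7 tested genes 6 had an estimate below 0, as had 6915 of all 14105 tested genes. AFMID, which makes kynurenine, had a log2 fold change of -0.37 (adjusted p = 0.203). KMO, the monooxygenase that uses kynurenine up, had the largest estimate, -1.31 (adjusted p = 0.229), on 17 and 12 counts in DMSO and 8 in each N_12 library. The aminotransferase genes KYAT3 and AADAT had -0.27 (adjusted p = 0.348) and 0.42 (adjusted p = 0.254), AADAT being the 1 tested gene of the list above 0. DESeq2 and limma-voom called none of them either.

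The next lists hold relatives of the target enzymes. Of 14 tested PARP enzymes other than TIPARP none was called by edgeR and 5 had an unadjusted p under 0.05, where 21.8% of all tested genes did (median 0.13). DESeq2 called 2 of them, PARP8 and PARP14, higher, where it called 4.42% of all genes higher, and limma-voom called none. PARP14 had the smallest p, with 29.1 and 38.0 CPM in DMSO and 57.4 and 55.2 CPM in N_12 (0.75, adjusted p = 0.0723). PARP8 had a log2 fold change of 0.62 (adjusted p = 0.0931), PARP4 one of 0.47 (adjusted p = 0.124) and the DNA repair enzyme PARP2 one of -0.37 (adjusted p = 0.199). Of 15 tested aldehyde dehydrogenases other than ALDH3A1, edgeR called 1 higher and none lower, where it called 0.822% of all tested genes higher. The median was -0.03. The 1 called was the retinaldehyde dehydrogenase ALDH1A3, from 247.5 and 227.9 to 380.5 and 359.4 CPM (log2 fold change 0.64, SE 0.13, edgeR adjusted p = 0.0495). Leaving out any 1 library ended that call (adjusted p from 0.119 to 0.158), as did limma-voom (0.0743). ALDH18A1, of proline synthesis, had the next smallest p (-0.58, adjusted p = 0.0635), and ALDH9A1 (-0.19, adjusted p = 0.432) and ALDH7A1 (0.25, adjusted p = 0.440) followed. Among 18 genes of the CYP2 and CYP3 families with POR and CYB5A, 11 were tested and none was called by edgeR, DESeq2 or limma-voom. The median was 0.02. With edgeR 1 gene had an unadjusted p under 0.05, where 21.8% of all tested genes did. That gene was CYB5A, which encodes cytochrome b5, at 23.4 and 20.5 CPM in DMSO and 15.2 and 15.0 CPM in N_12 (log2 fold change -0.53, edgeR adjusted p = 0.128). CYP2A6, CYP2R1 and CYP2J2 had -0.75, -0.29 and -0.46 (adjusted p from 0.367 to 0.406); CYP2A6 has a close paralogue, which makes its counts uncertain. POR, the reductase that feeds electrons to CYP enzymes, had a log2 fold change of 0.02 (adjusted p = 0.958). Of 6 genes for other xenobiotic sensors 5 were tested, and none was called by edgeR or limma-voom. An unadjusted edgeR p under 0.05 was found for 1, where 21.8% of all tested genes had one. DESeq2 called 1 (NFE2L2) higher, where it called 4.42% of all genes higher. The list median was 0.28. RXRB, KEAP1 and RXRA had log2 fold changes of -0.32, 0.55 and 0.28 (adjusted p from 0.247 to 0.404). NR1I3, the other tested gene of this list, had 16 and 14 counts in DMSO and 10 and 14 in N_12. Its log2 fold change was -0.78 (edgeR adjusted p = 0.420). The PXR gene NR1I2, which was not tested, had 0 counts in DMSO and 2 in each N_12 library.

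**Figure D4:**
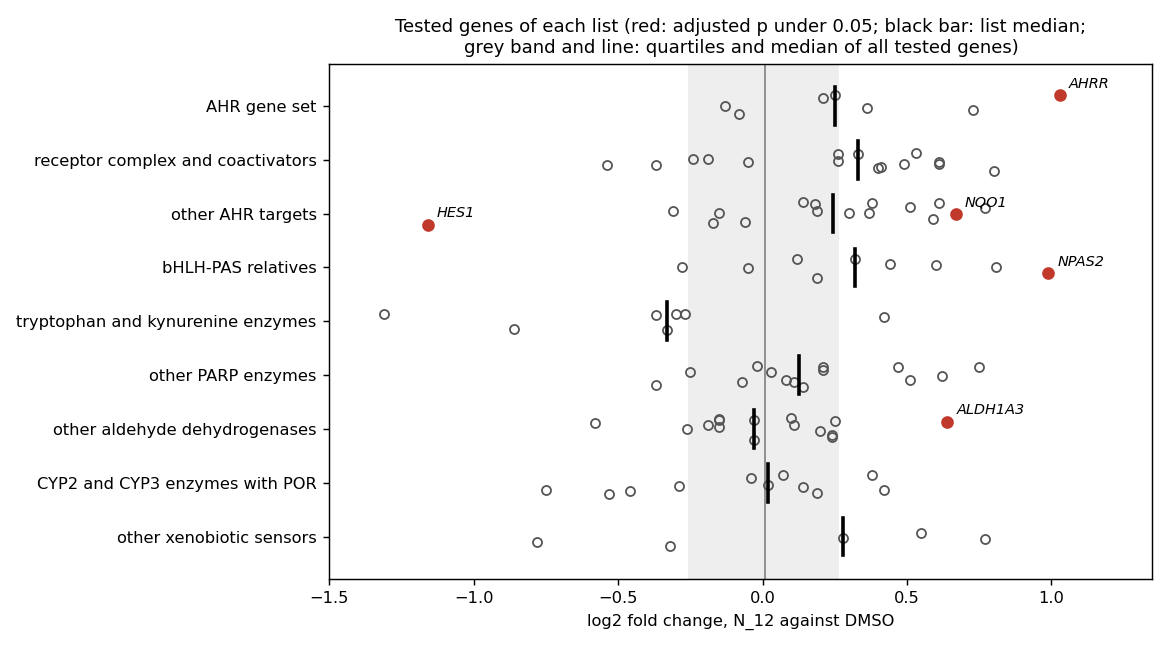
Log2 fold change of every tested gene of the AHR gene set and of the 8 further lists, each circle 1 gene, red where called; black bars are list medians, and the grey band and line give the quartiles and median of all tested genes. The 5 called genes are AHRR, NQO1, NPAS2 and ALDH1A3 on the higher side and HES1 on the lower.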

How the data were processed

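The authors deposited raw integer read counts for each gene, not normalized, keyed by human Ensembl identifiers. No header or label names an aligner, a counting tool or a strand setting, and GRCm38 and mm10, mouse builds that cannot belong to human identifiers, are listed in the submitters' processing notes. Symbols matched 20148 of 20263 identifiers, and sample titles gave groups and replicate numbers. The model was edgeR 4.0.16 in R 4.3.3, with TMM scaling, filterByExpr by group and a robust quasi-likelihood fit with group as its only term; p-values were two-sided and Benjamini-Hochberg adjusted over 14105 genes (threshold 0.05). Standard errors came from the fold change and F statistic, and distances between genes used a pseudocount of 0.5 CPM. Alternatives included limma 3.58.1 (voom) and DESeq2 1.42.0. The fit was tested on a single set of simulated counts, where unchanged genes made up a larger share of its calls than the threshold is meant to allow. Replicate counts differed beyond sampling noise (chi-square over its degrees of freedom 36.5 in DMSO, 57.2 in N_12), so each library was kept. Gene lengths came from GENCODE 29, sequences from RefSeq. Genes were named by a fixed rule: the 8 members, list members called or among the 4 smallest p of a list, the 3 nearest genes of each tested member, and markers. ARNT, POR, CUL4B, KLF6, NR1I3 and genes at or near 0 counts were named after their values were seen. The members and lists were chosen with earlier results of these data known.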

Additional observations from a re-analysis of the deposited data

How the results depend on the processing

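Over 13 other settings the estimates of AHRR (0.95 to 1.11), CYP1A1 (0.21 to 0.30), CYP1B1 (0.45 to 1.08) and TIPARP (0.01 to 0.82) stayed above 0. Those of AHR, ARNT2 and ALDH3A1, which were not called, changed sign in 1 setting each: 0.07 for AHR and -0.0025 for ALDH3A1 without N_12 replicate 2, and 0.0021 for ARNT2 without DMSO replicate 1; leaving out 1 library gave -0.38 to 0.07 for AHR, -0.15 to 0.0021 for ARNT2 and -0.0025 to 0.38 for ALDH3A1. ALDH3A1 was not tested at a mean of at least 5 CPM. AHRR ranged from 0.95 to 1.11 over the fits that leave out 1 library, and the members called from 0 to 1. Genes called in all were 317, but 131 with limma-voom, 131 with the non-robust fit, 1225 with DESeq2, 963 with the replicate block and 936 with GC content and length correction; leaving out 1 library gave 0 to 451. In the list of the receptor complex and coactivators, 4 genes were called with DESeq2, 1 with the replicate block and 2 with GC and length correction (0 to 1 leaving out 1 library). Of other targets 2 were called in the main fit, 0 with limma-voom and 0 with the non-robust fit. DESeq2 and the replicate block called 3 each. Of helix-loop-helix PAS relatives 2 were called with DESeq2 and 2 with the replicate block. PARP enzymes gave 2 with DESeq2, 1 with the replicate block and 2 with GC and length correction. Aldehyde dehydrogenases gave 0 with limma-voom, 0 with the non-robust fit, and 2 each with DESeq2, the replicate block and GC and length correction (0 leaving out any 1 library). Other xenobiotic sensors gave 1 with DESeq2 and 1 with the replicate block. The labels state no pairing, so the replicate numbers were not read as pairs. A later check showed that same-numbered libraries did not deviate together (correlation across genes -0.0895). With the replicate block AHRR had an edgeR adjusted p = 7.41e-04 and was the only member called. A lone library in a fit is assumed to vary like the other group. Depth limits CYP1A2, at 0 counts, and ALDH3A1, with 33 to 66.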
